A study of Rattus norvegicus with 6 samples.

Results

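Sensory neurons of the dorsal root ganglion, the cluster of sensory cell bodies beside the spinal cord, take on and keep their identity through a small set of transcription factors. The subject here is 10 of these, taken by name: the LIM homeodomain factors Isl1 and Isl2, the POU homeodomain factors Pou4f1, Pou4f2 and Pou4f3, the Runt factors Runx1 and Runx3, the ETS factor Etv1, the homeodomain factor Shox2 and the zinc finger factor Prdm12. Of these 10 genes, 8 were listed in all 6 deposited tables, among 14346 genes listed in at least 1. All 8 passed the filter on low counts, so no listed factor was left untested.

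The libraries came from rat dorsal root ganglia taken 7 days after surgery. In 3 the rats had partial sciatic nerve ligation (pSNL), a tight tie around part of the sciatic nerve that leaves injured and spared axons side by side and serves as a model of neuropathic pain. The other 3 came from sham-operated rats. The labels leave out strain, sex, age, ganglion level and side, and any pooling of animals. They also do not say whether libraries of a group come from different rats, so p-values measure only how much these libraries vary, and that variation may be technical.

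Isl1 and Pou4f1 are present in nearly all sensory neurons from early development, and act together to switch off the programme of dividing precursors and to open that of sensory subtypes. Subtype factors then divide the neurons: Prdm12 is needed for nociceptors, and its loss in humans causes congenital insensitivity to pain. Runx1 directs the non-peptidergic nociceptors, Shox2 the TrkB touch neurons, and Runx3 with Etv1 the TrkC proprioceptors. Several of these genes remain on in adult ganglia, which is why their RNA can be followed after a nerve lesion.

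Pou4f1 and Prdm12 were listed in no table and were not analysed here. The tables hold only genes above 0, and a gene that the authors' annotation lacked would also go unlisted, so their absence was not read as a level of 0. Both genes have curated RefSeq transcripts only with accession numbers above any in the tables. Of 2722 protein-coding genes in that position 25.7% were listed, against 84.7% of 15811 genes with an older accession.

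Levels between genes were compared per transcript length, as FPKM (fragments per kilobase of transcript, scaled to sequencing depth) in the authors' deposited values. Isl2 was the highest of the 8, at 59.5, 54.5 and 50.3 FPKM in sham replicates 1 to 3. Its sham mean exceeded that of 87.3% of listed genes. Isl1 followed at 32.4 ± 2.98 FPKM (SD, n = 3 sham libraries) and Etv1 at 29.7 ± 2.58 FPKM. The sham values of these latter genes overlapped, so their order is not settled. Pou4f3 stood at 17.5 ± 3.35 and Shox2 at 13.2 ± 0.725 FPKM, also with overlapping values. Pou4f2 at 6.34 ± 0.698 and Runx1 at 5.69 ± 0.965 FPKM were the lowest with Runx3, at 7.07, 6.34 and 4.19 FPKM in sham replicates 1 to 3. These last genes overlapped, and their sham means exceeded those of 44.1% to 46.0% of listed genes.

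**Figure D1:**
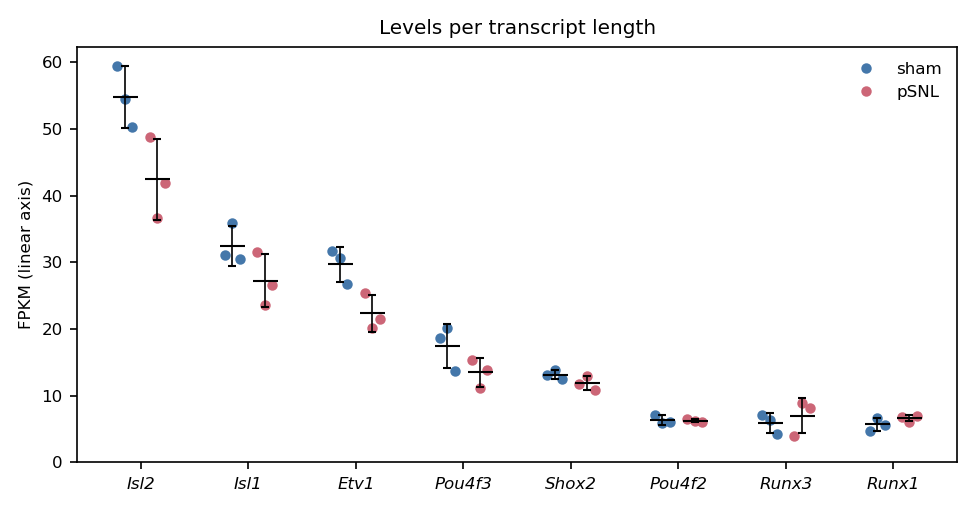
Deposited FPKM (linear axis) of the 8 listed factors in each of 3 sham (blue) and 3 pSNL (red) libraries, ordered by the sham mean; bars are the mean and SD. Isl2 lies highest in both groups, and Pou4f2, Runx3 and Runx1 lie lowest, with sham means of 5.69 to 6.34 FPKM.

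In the comparison of pSNL with sham, 6 of the 8 factors had a negative and 2 a positive log2 fold change, with a median of -0.21, where 49.4% of the 11091 tested genes had a positive fold change and their median was -0.0024. None of the 8 passed the threshold of adjusted p = 0.05 in edgeR's quasi-likelihood test, which called 0.460% of all tested genes. At an unadjusted p under 0.05, 2 of the 8 were lower (Etv1 and Isl2), beside 6.07% of all genes lower at that limit. Those same genes were the 2 of 8 whose pSNL libraries all lay under every sham library, as was so for 10.4% of tested genes. DESeq2 called 1 factor, Etv1, beside 3.01% of all genes. With 8 genes, which share their libraries, these shares are a description. In whole ganglia, fewer neurons of a type and less RNA in each neuron cannot be told apart.

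Etv1, the ETS factor known as a marker of proprioceptors and needed for their muscle connections, had the smallest p of the 8. It was at 219, 213 and 181 CPM (counts scaled to a common library size by the trimmed mean of M-values, TMM) in sham replicates 1 to 3 and at 172, 138 and 149 CPM in pSNL replicates 1 to 3. Every pSNL library was below every sham library, with sham replicate 3 and pSNL replicate 1 close to each other. The log2 fold change was -0.42 ± 0.11 (SE), a ratio of 0.75 with a 95% interval of 0.63 to 0.89. The adjusted p was 0.112 in edgeR's quasi-likelihood test and 0.0357 in DESeq2, so whether the gene counts as called depends on the test. With 1 library left out the edgeR value lay between -0.50 and -0.35 on the log2 scale and passed in none of the 6 fits. Between 600 and 958 counts per library lie behind these values, the most of any of the 8.

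Isl2, a LIM homeodomain factor closely related to Isl1, differed by a similar size. Its levels were 77.3, 70.7 and 63.9 CPM in sham against 61.8, 47.3 and 54.4 CPM in pSNL replicates 1 to 3, again without overlap. The log2 fold change was -0.37 ± 0.12 (SE; ratio 0.77, 95% interval 0.64 to 0.93; edgeR adjusted p = 0.190). Isl1, the partner needed for nociceptor development, was at 32.7, 37.8 and 31.4 CPM in sham against 32.4, 24.7 and 28.1 CPM in pSNL. Here pSNL replicate 1 lay inside the sham range. The log2 fold change of Isl1 was -0.26 ± 0.14 (SE; ratio 0.84, 0.67 to 1.05; edgeR adjusted p = 0.426). Within each library Isl2 was 1.52 to 1.92 times as high as Isl1 per length. That ratio was 1.70 ± 0.20 in sham and 1.56 ± 0.01 in pSNL (SD, n = 3 each).

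**Figure D2:**
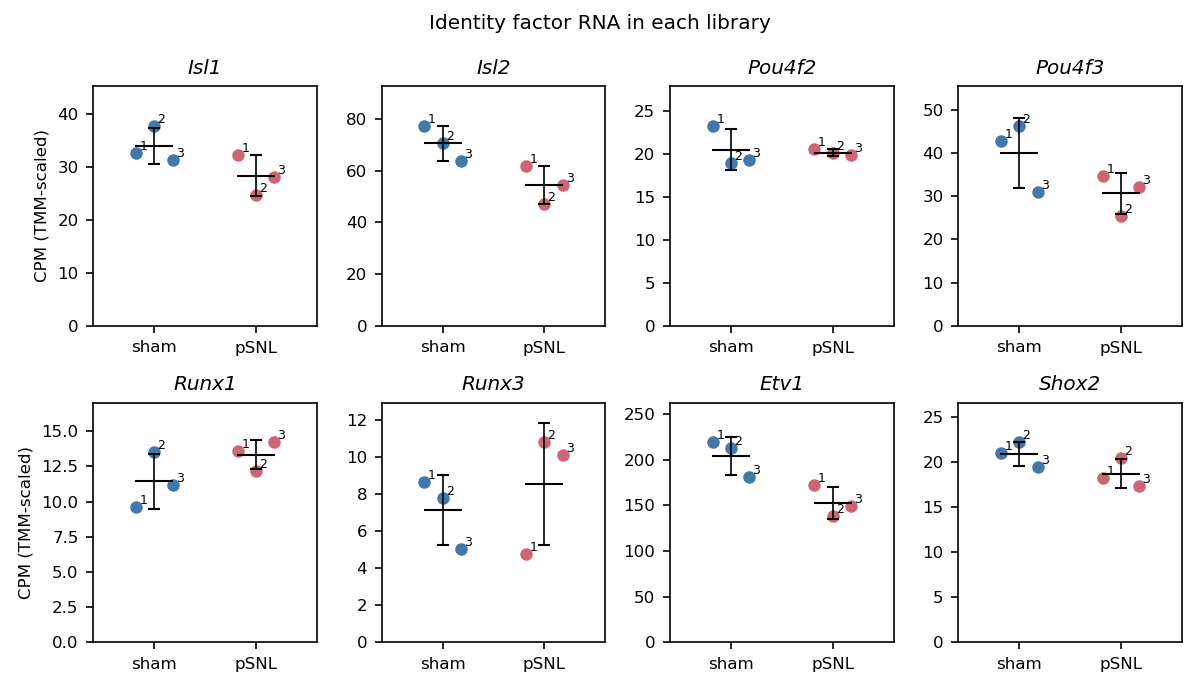
TMM-scaled CPM of the 8 listed factors in each library, with 1 panel per gene; numbers mark the replicate, and bars are the mean and SD of 3 libraries. In the Etv1 and Isl2 panels all pSNL points lie under all sham points, and in the other 6 panels the groups overlap.

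The promoters of both non-overlapping genes are shown to give the sequence beside the values. They are the 250 bases before the RefSeq start in the assembly GRCr8, 5′ to 3′ on the gene's strand, at chr6:61317179-61317428 (plus strand) for Etv1 and chr8:64819629-64819878 (plus strand) for Isl2. Capitals mark matches on either strand to 5 short motifs: TGTGGT of RUNX proteins, ATTAAT of POU4F proteins, TAATTG of LIM homeodomain proteins, GGAAGT of ETS proteins, and the cyclic AMP response element TGACGTCA, which CREB and ATF family proteins bind.
Etv1: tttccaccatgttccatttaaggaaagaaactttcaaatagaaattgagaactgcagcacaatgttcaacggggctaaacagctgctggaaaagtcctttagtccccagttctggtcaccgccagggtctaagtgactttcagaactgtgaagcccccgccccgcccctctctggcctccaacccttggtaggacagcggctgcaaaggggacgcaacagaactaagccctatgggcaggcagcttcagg
Isl2: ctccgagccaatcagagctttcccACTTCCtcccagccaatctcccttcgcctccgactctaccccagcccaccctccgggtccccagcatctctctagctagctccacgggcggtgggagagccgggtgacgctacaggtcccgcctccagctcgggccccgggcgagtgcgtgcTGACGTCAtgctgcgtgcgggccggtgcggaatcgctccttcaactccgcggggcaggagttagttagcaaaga
The Etv1 window held none of the 5. The Isl2 window held the ETS letters once, 226 bases before the start, and the response element once, 74 bases before it. Among 33469 windows of the same length, 19.2% held the ETS motif and 1.59% the response element, while 14.5% held the RUNX, 4.71% the POU4F and 7.31% the LIM homeodomain letters. A match says only that the letters are there.

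The POU factors carry a limit of their own. Pou4f2 and Pou4f3, which mark subsets of sensory neurons and are better known from retinal ganglion cells and inner ear hair cells, had fractional expected counts in all 6 libraries. Their sums were whole to within 0.005 counts in all 6: 289, 285 and 219 in sham and 244, 197 and 227 in pSNL replicates 1 to 3. Reads were thus divided by estimate between these paralogs, and the share given to Pou4f3 ran from 56.0% to 70.8%. Whether reads of Pou4f1, which has a very similar POU domain, are among them was not tested. The other 6 listed factors had whole counts in every library.

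Pou4f3 was at 42.7, 46.2 and 30.9 CPM in sham against 34.6, 25.4 and 32.0 CPM in pSNL. Sham replicate 3 lay inside the pSNL range, and the log2 fold change was -0.38 ± 0.18 (SE; ratio 0.77, 0.59 to 1.01; edgeR adjusted p = 0.336). Pou4f2 lay at 23.3, 19.0 and 19.3 CPM in sham against 20.6, 20.1 and 19.9 CPM in pSNL (log2 fold change -0.02 ± 0.15, ratio 0.98, 0.78 to 1.24; edgeR adjusted p = 0.958). The interval leaves room for a fall to 0.78 of the sham level or a rise to 1.24. Taken as 1 feature, which does not depend on the division between them, the pair was at 66.1, 65.2 and 50.2 CPM in sham against 55.2, 45.4 and 51.9 CPM in pSNL. Sham replicate 3 lay inside the pSNL range. Its log2 fold change was -0.26 ± 0.13 (SE), with an adjusted p of 0.380 in edgeR.

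**Figure D3:**
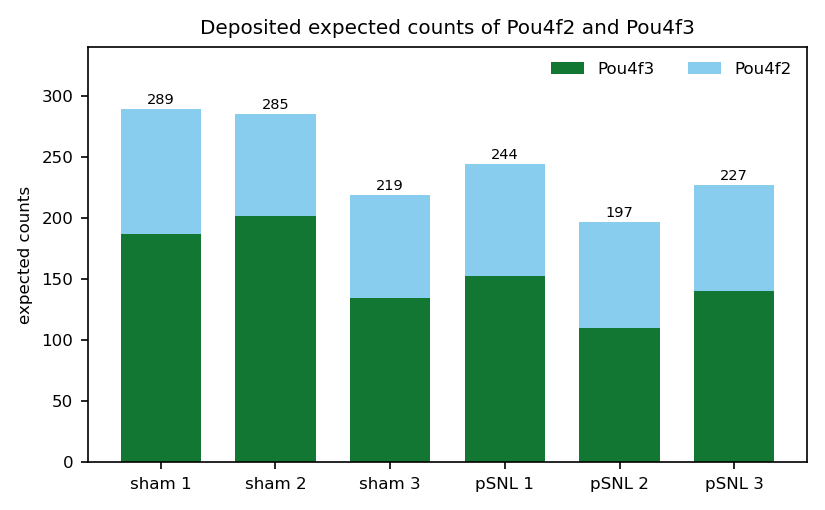
Deposited expected counts of Pou4f3 (green) and Pou4f2 (light blue), stacked for each library, with the sum above each bar. Sums are whole numbers between 197 and 289, with Pou4f3 parts of 110.3 to 201.78 and Pou4f2 parts of 83.22 to 101.95.

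Among the subtype factors, Runx1 and Runx3 were the only ones with positive fold changes, and both were thinly covered, with 21 to 62 counts per library. Runx1 was at 9.60, 13.5 and 11.2 CPM in sham against 13.6, 12.2 and 14.2 CPM in pSNL. The log2 fold change was 0.22 ± 0.20 (SE; ratio 1.16, 0.85 to 1.59; edgeR adjusted p = 0.638). Myeloid cells also carry Runx1, and the summed level of 13 macrophage markers was 192 to 248 CPM in sham against 329 to 555 CPM in pSNL, with 12 of the 13 at a positive fold change. Their part in the Runx1 values was not tested.

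Runx3 varied most. It was at 8.69, 7.78 and 5.04 CPM in sham against 4.75, 10.8 and 10.1 CPM in pSNL, so pSNL held both the lowest and the highest library. The log2 fold change was 0.25 ± 0.34 (SE; ratio 1.19, 0.70 to 2.02; edgeR adjusted p = 0.773), and with 1 library left out it ran from 0.044 (without pSNL replicate 2) to 0.55 (without pSNL replicate 1). Lymphocytes carry Runx3 too. The 8 listed T and NK cell markers summed to 2.97 to 3.90 CPM in sham against 3.17 to 8.69 CPM in pSNL. Like Runx3, that sum was lowest in pSNL replicate 1 among the pSNL libraries, at 3.17 CPM against 7.61 and 8.69. In sham the order was the opposite: the sum was 2.97, 3.89 and 3.90 CPM in replicates 1 to 3, lowest where Runx3 was highest. The T cell receptor genes Cd3d, Cd3e and Cd3g stood at 0 to 0.458 CPM in every library. The part of these cells in the Runx3 values was not tested.

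Shox2, the touch neuron factor, was at 21.0, 22.2 and 19.5 CPM in sham against 18.3, 20.5 and 17.4 CPM in pSNL. The log2 fold change was -0.16 ± 0.15 (SE; ratio 0.90, 0.71 to 1.13; edgeR adjusted p = 0.647). These groups overlapped, and the interval does not reach a fall below 0.71 of the sham level. Shox2 had no entry in the promoter table. One of the 2 Runx3 windows is shown because it holds the RUNX letters in a pair, chosen after the sequences were seen. It lies at chr5:152644020-152644269 (plus strand, GRCr8), with RUNX matches 135 and 127 bases before the start and a cyclic AMP response element 247 bases before it.
Runx3: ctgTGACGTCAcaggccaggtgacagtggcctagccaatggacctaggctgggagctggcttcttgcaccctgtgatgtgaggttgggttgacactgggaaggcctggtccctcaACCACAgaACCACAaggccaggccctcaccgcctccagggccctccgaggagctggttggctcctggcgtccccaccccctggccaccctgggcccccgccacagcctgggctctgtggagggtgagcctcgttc
No RUNX letters were found in the other Runx3 window or in the 1 window of Runx1.

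**Figure D4:**
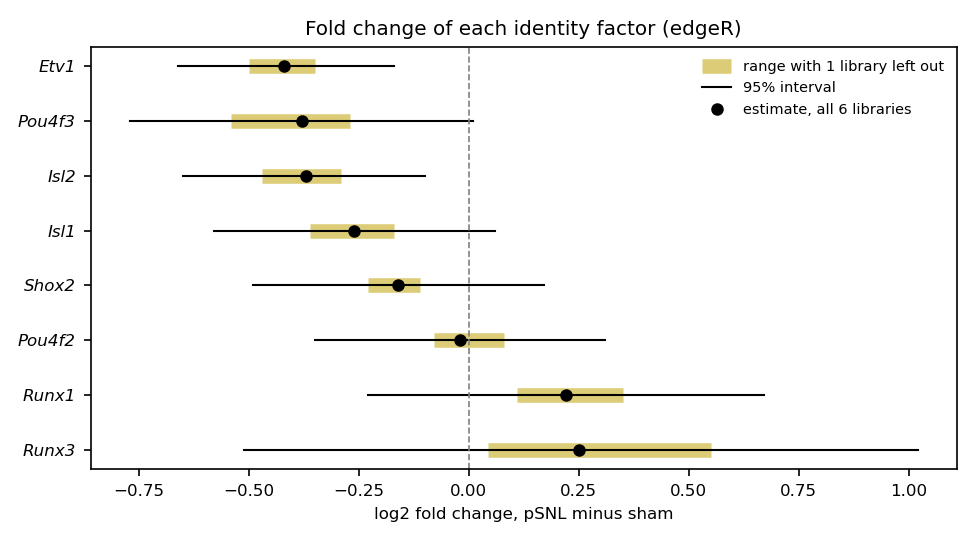
Log2 fold change of pSNL against sham for the 8 listed factors from edgeR's fit over all genes; points are estimates, lines 95% intervals, and bands the range over 6 fits with 1 library left out. The intervals of Etv1 and Isl2 lie below 0 before adjustment over all genes, while the other 6 cross it.

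The libraries also differed within each group, and the levels of the factors are given here beside these differences. Atf3, an injury-induced transcription factor, was at 11.4 to 22.7 CPM in sham against 97.4, 293 and 234 CPM in pSNL replicates 1 to 3. Among the pSNL libraries, the one with the lowest Atf3 had the highest Etv1, Isl1, Isl2 and Pou4f3, and the one with the highest Atf3 had the lowest. The other listed factors did not share this order: Runx3 and Shox2 were highest in the library with the highest Atf3, Runx1 was lowest there, and Pou4f2 differed little, at 19.9 to 20.6 CPM. Nor was the order particular to these factors: of the neuron genes given below, Snap25 and Rbfox3 had the order of Etv1, while Syp and Tubb3 did not. Among other injury-induced genes, Sox11, Gap43, Gal and Npy had the order of Atf3. Sprr1a was instead highest in pSNL replicate 3, at 6.79, 13.1 and 14.9 CPM in pSNL replicates 1 to 3. These are orders of 3 libraries, with no test. Sham replicate 3 held markers of central nervous tissue, with 17 central genes summing to 2219 CPM against 41.4 to 77.9 CPM in the other 5 libraries, and skeletal muscle genes summed to 512 CPM there and 977 CPM in pSNL replicate 3 against 12.4 to 19.2 CPM elsewhere. Etv1, Isl1, Isl2, Pou4f3, Runx3 and Shox2 were at their lowest sham level in that library, and the part of the other tissue in this was not tested. Without it the log2 fold changes were -0.50 for Etv1, -0.44 for Isl2, -0.31 for Isl1 and -0.54 for Pou4f3 (edgeR adjusted p = 0.0799, 0.155, 0.394 and 0.152).

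All 12 general neuron genes were listed. Their summed level was 13990, 14217 and 12613 CPM in sham against 13840, 13948 and 14346 CPM in pSNL, and 7 of 12 had a positive fold change. Tubb3 alone made up 41.1% to 44.3% of that sum in sham and 46.0% to 53.2% in pSNL. The other 11 genes summed to 7793, 7943 and 7426 CPM in sham against 7472, 6523 and 6871 CPM in pSNL, where only pSNL replicate 1 lay inside the sham range. Snap25 is 1 of these 11, at 2060, 2072 and 2293 CPM in sham against 1697, 1348 and 1462 CPM in pSNL. It made up most of the difference between the group means of this sum. Scaled to all 12 in place of all genes, Etv1 had a log2 fold change of -0.46 and Isl2 of -0.42 (edgeR adjusted p = 0.0831 and 0.162). Scaled to the 11 genes without Tubb3, a choice made after seeing the data, Etv1 had -0.27 and Isl2 -0.23 (edgeR adjusted p = 0.171 and 0.297). That scaling moved the median of all tested genes to 0.15 and the median of the 8 factors to -0.05, and turned Pou4f2 positive (0.13). How far the factors are lower thus depends on the genes taken as reference. Single neuron genes went apart: Tubb3, a tubulin of neurons, was at 5886 ± 607 CPM in sham against 7089 ± 625 CPM in pSNL, while in the same order Snap25 and Syp, proteins of synaptic vesicle release, were at 2141 ± 131 and 1502 ± 178 CPM and at 425 ± 7.43 and 348 ± 6.02 CPM (SD, n = 3). Rbfox3, the nuclear antigen NeuN, was at 70.2 ± 4.18 and 50.9 ± 5.05 CPM. With all 6 libraries and the low-count filter, none of Tubb3, Snap25, Syp and Rbfox3 passed in edgeR (adjusted p = 0.278, 0.0639, 0.108 and 0.0871). Snap25 passed in edgeR with no filter (adjusted p = 0.0465) and without pSNL replicate 1 (adjusted p = 0.0237). Of the 12 neuron genes DESeq2 called Snap25 and Syp, beside 3.01% of all tested genes.

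Across 89 tested genes of the lists described next and of the neuron genes, those most like Etv1 over the 6 libraries were Nefl, Nefm and Ldb2. Likeness was the Euclidean distance between log2 CPM profiles centred on their mean, at 0.11, 0.20 and 0.24. Nefl and Nefm encode neurofilament subunits, abundant in large myelinated neurons. The likeness was not particular to genes of such neurons. Rbfox3 and Avil of the general neuron genes lay at 0.26 and 0.31. Scn11a of the genes linked to Runx1 lay at 0.28, beside Nefh of the proprioceptor and touch genes at 0.27. Nefl was at 13368, 13444 and 11042 CPM in sham against 9971, 8769 and 9297 CPM in pSNL (log2 fold change -0.43 ± 0.11, edgeR adjusted p = 0.101, DESeq2 adjusted p = 0.00129). Nefl passed in edgeR without sham replicate 3 (-0.52, adjusted p = 0.0450) and when scaled to all 12 neuron genes (-0.48, adjusted p = 0.0375), but not when scaled to the 11 without Tubb3 (-0.28, adjusted p = 0.140). Among the factors themselves Isl2 was the nearest to Etv1, also at 0.11. This is a description over 6 libraries, with no test.

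Other transcription factors of sensory neurons were read from a list of 49, of which 40 were listed and 30 tested. None passed in edgeR. There were 14 with positive and 16 with negative fold changes and a median of -0.05, and 6 had an unadjusted p under 0.05, beside 15.5% of all genes. Scrt1, a zinc finger repressor of neurons, was at 63.8, 63.6 and 54.3 CPM in sham against 37.8, 47.3 and 34.5 CPM in pSNL, without overlap (log2 fold change -0.60 ± 0.14, edgeR adjusted p = 0.0823, DESeq2 adjusted p = 0.0298). Ebf2, a helix-loop-helix factor of neuron development, was at 6.41 ± 1.61 CPM in sham against 12.6 ± 3.71 CPM in pSNL, the order also kept for the pairs of means that follow (0.97 ± 0.29, adjusted p = 0.151). Klf7, a zinc finger factor of nociceptors, was at 18.2 ± 2.69 and 28.7 ± 8.35 CPM (0.65 ± 0.22, adjusted p = 0.212).

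Of 19 partner proteins of the factors, 17 were listed and 16 tested, with 6 positive and 10 negative fold changes and a median of -0.14. None passed in edgeR or DESeq2. In edgeR 2 of the 16 had an unadjusted p under 0.05 (Tle1 and Tle3, in opposite directions), beside 15.5% of all tested genes. The list thus did not exceed that share. Ldb1, the scaffold that joins LIM homeodomain proteins, lay between 76.1 and 83.1 CPM in all 6 libraries. Its relative Ldb2 was at 95.8, 93.4 and 74.9 CPM in sham against 86.5, 67.1 and 70.2 CPM in pSNL, with overlap (edgeR adjusted p = 0.416). Cbfb, which binds DNA together with every RUNX protein, was at 155 to 222 CPM over the 6 libraries, far above both Runx genes on the per-length scale too (67.9 FPKM in sham). The corepressors Tle1 and Tle3 were at 63.2 ± 6.33 and 53.3 ± 2.63 CPM and at 57.4 ± 5.48 and 78.8 ± 23.0 CPM (edgeR adjusted p = 0.306 and 0.321), and Ssbp4, which stabilises LDB proteins, at 55.3 ± 10.2 and 48.2 ± 3.28 CPM (adjusted p = 0.524).

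The genes tested of the neuron types that these factors direct did not pass in edgeR with all 6 libraries and TMM scaling. Of 11 genes linked to Runx1, 4 had a positive and 7 a negative fold change, with a median of -0.05. In edgeR 1 of the 11 had an unadjusted p under 0.05, beside 15.5% of all tested genes, so the list did not exceed that share. That gene was Mrgprd, a receptor of non-peptidergic nociceptors, at 10.7, 11.9 and 13.3 CPM in sham against 9.06, 4.38 and 5.95 CPM in pSNL (log2 fold change -0.89 ± 0.28, edgeR adjusted p = 0.173). Trpv1 and Trpm8, cation channels of sensory endings, had log2 fold changes of -0.42 ± 0.21 and 0.27 ± 0.15 (edgeR adjusted p = 0.396 and 0.429).

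Of 8 other nociceptor genes, 3 had a positive and 5 a negative fold change, with a median of -0.18. Gfra3, the artemin receptor, was at 88.2 ± 13.2 and 119 ± 13.9 CPM (log2 fold change 0.43 ± 0.13, edgeR adjusted p = 0.152). Prph, the intermediate filament peripherin, and Calca, the gene of the peptide CGRP, had log2 fold changes of 0.15 ± 0.12 and -0.36 ± 0.31 (adjusted p = 0.567 and 0.636).

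Of 14 proprioceptor and touch genes, 12 were listed and tested, with 4 positive and 8 negative fold changes and a median of -0.16. At an unadjusted p under 0.05, 3 were lower (Nefl, Nefm and Whrn) and 2 higher (Gfra1 and Spp1), 5 of 12 in all, beside 15.5% of all tested genes in either direction and 6.07% lower. Whrn, the scaffold protein whirlin of proprioceptors, was at 61.7, 61.8 and 69.9 CPM in sham against 55.7, 54.4 and 53.1 CPM in pSNL, without overlap (log2 fold change -0.25 ± 0.10, edgeR adjusted p = 0.271). Nefm was at 13819 ± 1937 and 10954 ± 785 CPM (-0.34 ± 0.12, adjusted p = 0.217). Gfra1, the GDNF receptor, was at 125 ± 5.78 and 252 ± 86.7 CPM (1.02 ± 0.25, adjusted p = 0.143). DESeq2 called Gfra1 and Nefl, 2 of the 12, beside 3.01% of all tested genes. Without pSNL replicate 1, Gfra1 passed in edgeR too (1.26, adjusted p = 0.00192).

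**Figure D5:**
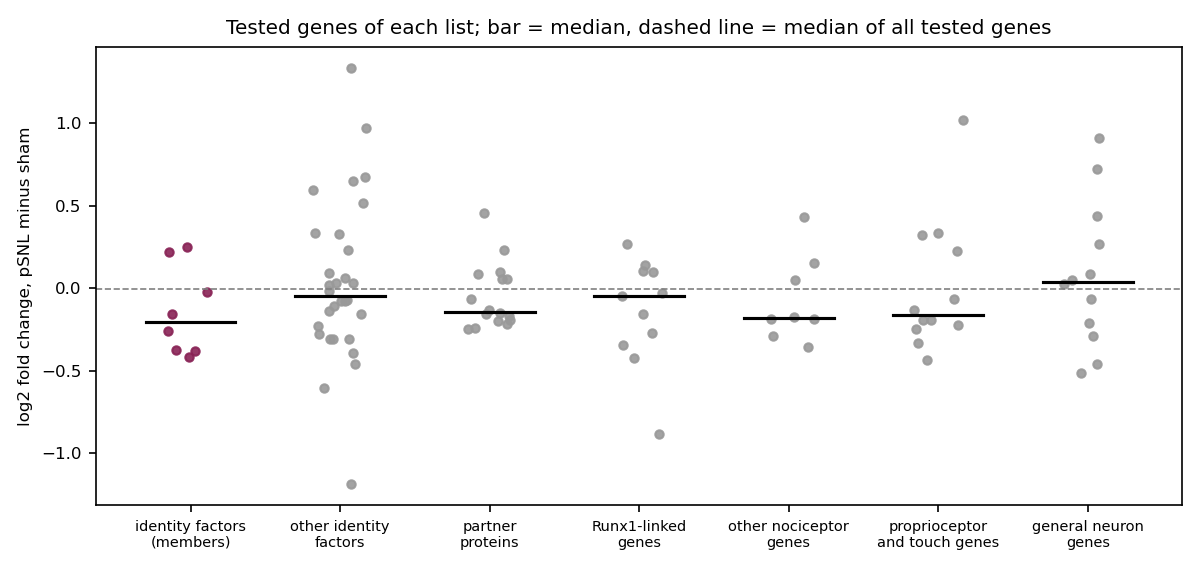
Log2 fold change (pSNL minus sham) of each tested gene, for the 8 listed factors (purple) and 6 lists of related genes (grey); bars are list medians and the dashed line is the median of all 11091 tested genes. Medians lie between -0.21 for the 8 factors and 0.04 for general neuron genes, and single genes within each list spread on both sides of 0.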

How the data were processed

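Each library had 1 deposited table of expected counts and FPKM, both estimated by the authors per the file headers; expected counts need not be whole, and the length column gives bases. CASAVA 1.4 and Bowtie2 were used, per the submitters' processing notes. The quantifier, genome build, annotation and strand setting: not given in the sources used here. Library totals were 4310643 to 4416121 counts. Genes absent from a table were taken as 0 there.

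Gene IDs were matched to symbols in a RefSeq table (GRCr8, names only): 14227 by ID, 16 by transcript, 103 unmatched. Counts were rounded and fitted over all genes with edgeR 4.0.16 (R 4.3.3; TMM, default low-count filter, robust quasi-likelihood F test, Benjamini-Hochberg over 11091 genes, threshold 0.05). SE and 95% intervals of log2 fold changes come from the test statistic and its degrees of freedom, unadjusted. The fit was run on simulated counts with 200 changed genes and a common dispersion. The simulated fold changes were larger than those of the factors, so that run does not measure power at the sizes seen here.

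Members and lists were chosen with earlier results of these data known. Named genes are all members and, per list, the 4 with the smallest p, plus genes needed for small counts; some of these are not reported here, and Ldb1, Cbfb, the Cd3 genes and the genes under other observations were chosen after their values were seen. The response element motif was added after the sequences were seen. Alternatives were DESeq2 1.42.0, no TMM, no filter, at least 1 CPM in 3 libraries, the replicate block, limma 3.58.1 on log2(FPKM + 0.1), scaling to neuron genes, and 1 library left out; summing Pou4f2 with Pou4f3 and scaling to the neuron genes without Tubb3 were added after the data were seen.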

Additional observations from a re-analysis of the deposited data

How the results depend on the processing

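None of the 8 listed factors passed under any edgeR or limma alternative run; DESeq2 called 1 of them, Etv1 (-0.42, adjusted p = 0.0357). All kept their direction, except Pou4f2, which lay between -0.079 and 0.079 with 1 library left out, was positive without sham replicate 1 and was 0.13 when scaled to 11 neuron genes without Tubb3; Shox2 had a change near 0 under that scaling (adjusted p = 1.00). Over all genes 51 were called (49 higher, 2 lower); the count was 334 with DESeq2 (260 higher, 74 lower), 117 when scaled to the 11 neuron genes (0 lower), 89 with no low-count filter and 5 (without sham replicate 2) to 217 (without pSNL replicate 1) with 1 library left out. With the replicate number as a block it was 111, and Etv1 and Isl2 stayed uncalled (adjusted p = 0.105 and 0.171). The labels do not say whether the numbers pair the libraries. Deviations from the group mean correlated at 0.03, 0.01 and 0.12 for replicates 1, 2 and 3, and sham replicate 2 correlated best with another number. Skeletal muscle genes were high in both replicate 3 libraries (512 CPM in sham and 977 CPM in pSNL). With 3 libraries per group these values do not settle whether the numbers pair. From the related lists only 24 genes were followed, those with the smallest p of each list in these same libraries. Under 15 alternatives each, no value reversed and 11 of 360 passed the threshold. Since these genes were selected by their p in the same data, the lack of reversals does not show how stable the other listed genes are. Runx1 and Runx3 had the fewest counts of the 8, 21 to 62 per library. The cause of these differences was not tested.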

Other observations

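Several factors of early sensory neuron development were near the detection limit. Neurod1 was at 0 to 0.231 CPM, Neurod4 at 0 to 0.916 CPM, Nhlh1 at 0 to 0.686 CPM and Onecut1 at 0 to 0.231 CPM over the 6 libraries. Other factors were among the highest of the list: Tlx2 stood at 60.7 ± 11.1 FPKM, Drgx at 42.1 ± 7.02 FPKM and Maf at 27.4 ± 1.46 FPKM in sham (SD, n = 3), beside 29.7 ± 2.58 FPKM for Etv1. Drgx, a homeodomain factor of pain circuits, was at 114, 110 and 81.1 CPM in sham against 101, 77.0 and 73.6 CPM in pSNL, with overlap. Meis1 was at 14.9 CPM in sham replicate 3, the library with central nervous tissue markers, and at 3.17 to 5.49 CPM in the other 5.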
